A study of Rattus norvegicus with 30 samples.

Results

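The 7 cell adhesion molecule genes were examined in rat brain tissue: the cadherins Cdh1 (ENSRNOG00000020151) and Cdh2 (ENSRNOG00000015602), the claudins Cldn1 (ENSRNOG00000001926) and Cldn5 (ENSRNOG00000045811), and the immunoglobulin type molecules Vcam1 (ENSRNOG00000014333), Icam1 (ENSRNOG00000020679) and Ncam1 (ENSRNOG00000031890). They were chosen by Ensembl identifier, on condition that the chromosome in the count files was the one expected for the gene. All 7 met this condition, 0 were dropped, and they are 7 of the 32552 genes in the files. RNA was sequenced from 30 adult, wild type, male Sprague Dawley rats, with 1 library per rat. Training lasted 21 days and was followed by 8 days of foot-shocks. CT rats (n = 7) took saline and received no foot-shocks. SR rats (shock-resistant, n = 7) and SS rats (shock-sensitive, n = 6) took methamphetamine (METH), and a share of their lever presses was punished. SR rats went on pressing under punishment, and SS rats pressed less. The yoked rats, YSR (n = 5) for SR and YSS (n = 5) for SS, took saline instead of METH and were shocked whenever their METH partner was. The SR and SS groups were thus formed by behavior after drug intake had begun, and their rats were not assigned to them. The tissue field of the labels names the dorsal striatum, whereas their protocol text and the study's methods name the hippocampus. The labels place dissection 2 h after the last session. The abstract of the study gives the same delay, whereas its methods place it immediately after. Neither disagreement was settled here.

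Total counts lay between 14584340 and 19997820 per library, with a median of 17386092 in CT, 16946598 in SR, 17536540 in SS, 17110757 in YSR and 17830500 in YSS rats. The sample titles also carry a code, Grp XII (11 rats) or Grp XIII (19 rats), and a letter, L (12 rats) or R (18 rats), whose meaning the labels do not give. The 11 Grp XII rats were 4 SR, 3 YSR, 2 SS, 1 YSS and 1 CT rat, so the code was unevenly spread over the groups. No YSR rat carried the letter L.

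Adhesion molecules hold cells to one another and to their surroundings. Cadherins bind the same cadherin on a neighboring cell when calcium is present and are anchored to the actin skeleton through catenins, and in neurons they sit at synapses. Claudins form the strands of tight junctions that seal epithelia and the vessel walls of the brain. The immunoglobulin type molecules either bind integrins on white blood cells, as Vcam1 and Icam1 do on endothelium, or join neural cells, as Ncam1 does during axon growth and synaptic plasticity.

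The 6 genes with reads differed widely in level. Levels of different genes are given per kilobase of exonic length over 30 rats, from the CPM (the count scaled to a common TMM-normalized library size). Ncam1 was highest at 70.9 ± 6.24 (SD), followed by Cdh2 at 38.1 ± 1.82 and Vcam1 at 8.43 ± 0.803. Cldn1 stood at 2.22 ± 1.05, Icam1 at 1.74 ± 0.344 and Cdh1 at 0.193 ± 0.143. The order held in 30 of 30 rats for every neighboring pair except Cldn1 and Icam1, where Cldn1 was the higher in only 18 of 30 rats, so these levels were not separated beyond their spread. The Ncam1 gene model in the files spans 62261 bases, which is 20.8% of the span of the RefSeq gene, and its level therefore describes only that portion of the gene. The Vcam1 model spans 26427 bases, which is 134% of the span of its RefSeq gene. In bulk tissue, fewer cells of a type and less RNA per cell cannot be told apart.

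The genes also differed in how much they varied between rats. The coefficient of variation of the CPM was 4.78% for Cdh2, 8.81% for Ncam1, 9.54% for Vcam1 and 19.8% for Icam1, against 47.3% for Cldn1 and 74.3% for Cdh1. Counting alone gives 8.86% at the mean count of Cldn1 and 26% at that of Cdh1. Separate rats varied by more than counting error in both, as in the other genes with reads, so this comparison alone does not set them apart. The biological coefficient of variation estimated by edgeR was 0.541 for Cdh1 and 0.434 for Cldn1, against a median of 0.0938 over all 15797 genes tested.

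**Figure D1:**
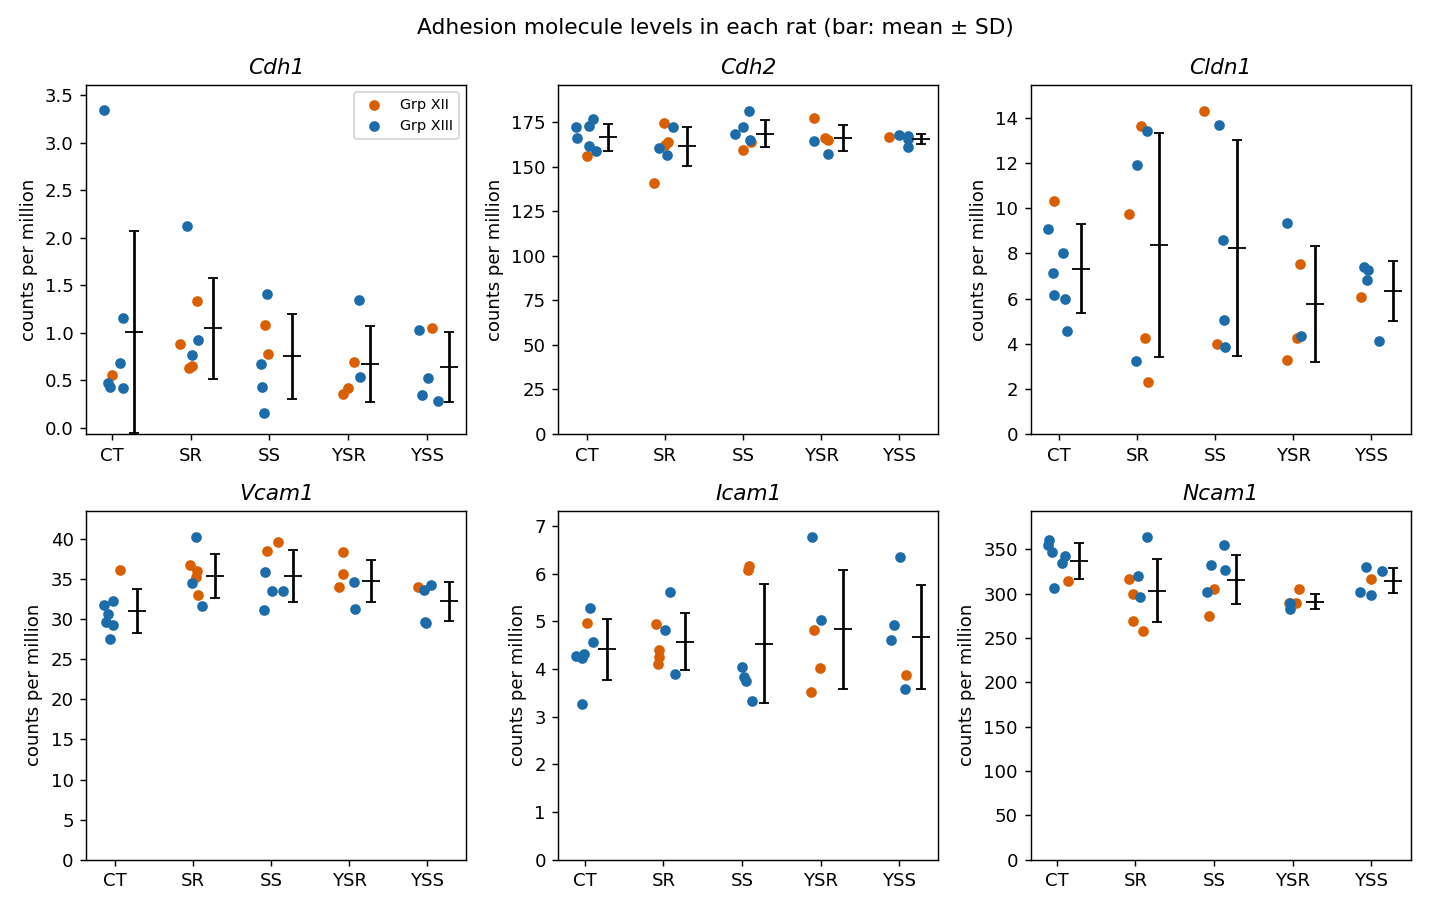
CPM of 6 adhesion molecules (y axis) in each rat by group (x axis), with the mean ± SD beside the points and the Grp code of the sample title by color. Every pair of groups overlaps in every gene except YSR and CT rats in Ncam1, and 1 CT rat stands far above the others in Cdh1.

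Whether these genes differed between groups was tested with edgeR's quasi-likelihood test on all 30 libraries, in the 8 pairings and in a test of any difference among the 5 groups. It was also tested in the contrast (SR - YSR) - (SS - YSS), which compares the difference between METH and yoked rats across the shock-resistant and the shock-sensitive arms. The study reports that under punishment SR rats took more METH than SS rats, and that SR and YSR rats received more shocks than SS and YSS rats. The contrast therefore does not separate METH from dose, shocks and behavior. Cldn5 had no counts, and 6 of the 7 genes were tested. With p-values adjusted over all tested genes (Benjamini-Hochberg) and a threshold of 0.05, edgeR called 0 of 6 genes in each of these comparisons, and so did DESeq2. Tukey's test on log2 CPM, run in the 8 pairings and for any difference but not for the contrast of the arms, also called 0 of 6. Against CT rats, edgeR called at the same threshold 0.12% of all tested genes for YSR, 0.101% for SS, 0.0823% for YSS and 0% for SR rats. edgeR called 0.171% in the test of any difference and 0.0253% between SR and YSR rats. Between SS and YSS, SR and SS, and YSR and YSS rats, and in the contrast of the arms, edgeR called 0%. DESeq2 called between 0% and 0.361% in these comparisons, and Tukey's test between 0% and 0.146%.

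At an unadjusted p-value under 0.05, edgeR called 2 of 6 genes (Vcam1 and Ncam1) in SR against CT rats, where it called 10.5% of all genes tested. YSR against CT rats also gave 2 genes (Vcam1 and Ncam1), against 7.56% of all genes. SS against CT rats gave 1 gene (Vcam1), against 5.01%, and YSS against CT rats gave 0, against 5.01%. These 4 comparisons share the same CT rats. The count was 0 between YSR and YSS rats (3.29% of all genes), SS and YSS rats (4.27%), SR and YSR rats (8.17%) and SR and SS rats (7.46%), and also in the contrast of the arms (5.43%). The test of any difference gave 2 genes (Vcam1 and Ncam1), against 7.32%. DESeq2 gave the same counts in these comparisons, against 10.4% of all genes in SR vs. CT, 7.54% in YSR vs. CT, 4.89% in SS vs. CT, 8.05% for any difference and 2.97% to 8.1% in the others. Tukey's test gave 1 gene in SR vs. CT (1.91% of all genes), 1 in YSR vs. CT (1.3%), 2 for any difference (7.04%) and 0 in the other 6 pairings (0.392% to 1.85%). In the pairings its p-values are already adjusted over the pairs of groups, so its threshold is stricter there than that of edgeR and DESeq2. With the Grp code in the edgeR model, any difference had 0 genes (6.75% of all genes), SR vs. CT had 1 (6.83%) and YSR vs. CT had 1 (5.61%). Single libraries moved some of these counts. Without CT rat XIII-R06 (6.03% of all genes) or YSR rat XII-R02 (6.84%), YSR vs. CT had 1 gene, and any difference had 0 genes without CT rat XIII-R06 (6.51%) and 1 without CT rat XIII-R12 (6.29%). SS vs. CT had 2 genes without SS rat XIII-L05 (7.18%), and SS vs. YSS had 1 without SS rat XIII-L05 (4.77%) or YSS rat XIII-L06 (5.08%).

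**Figure D2:**
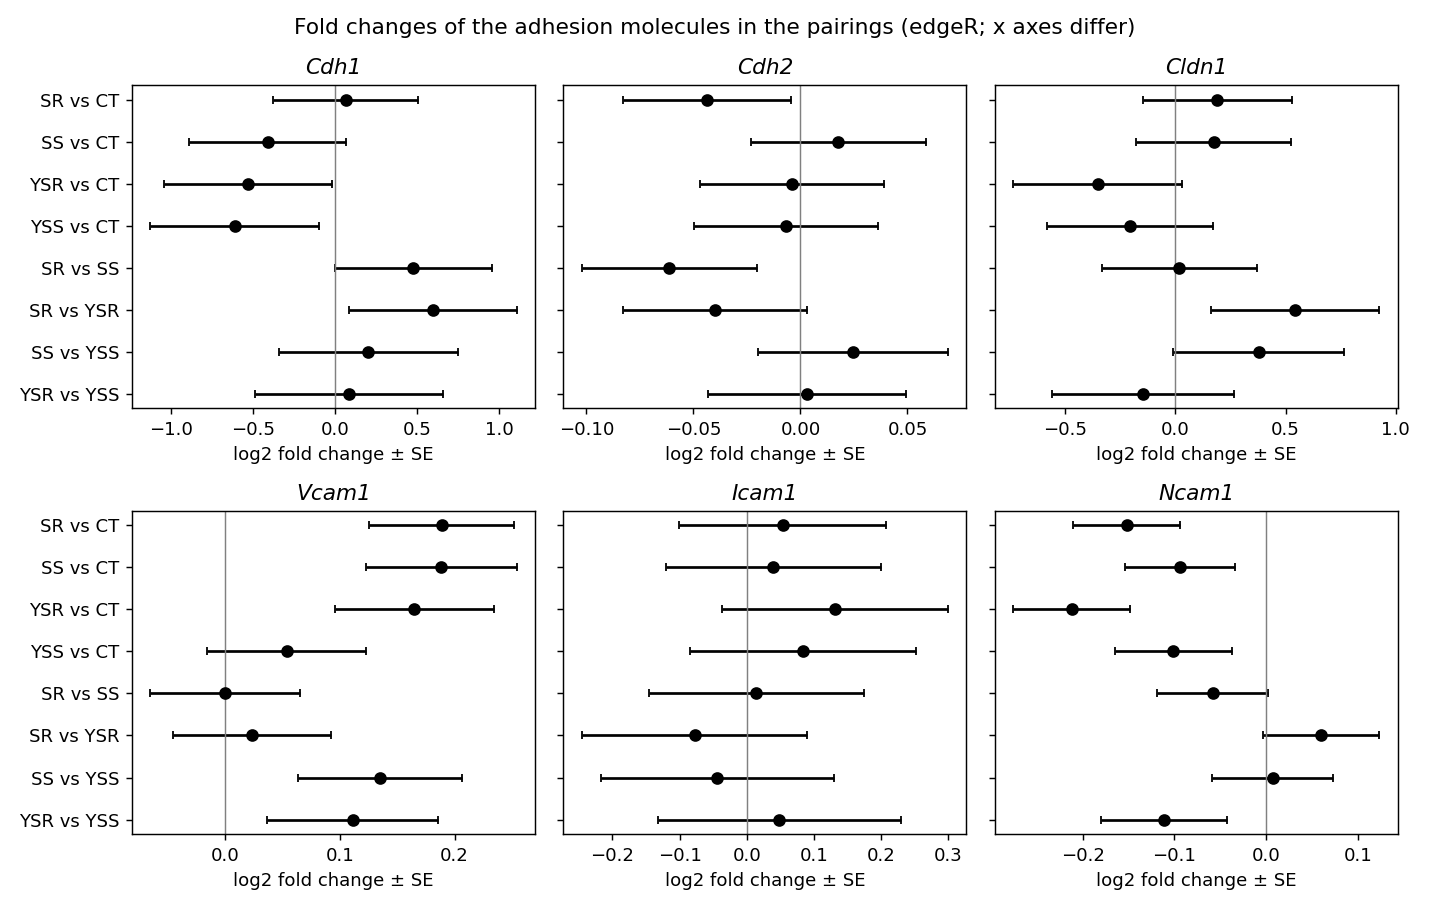
Log2 fold changes ± SE (x axis, scaled separately for each gene) of 6 adhesion molecules in the 8 pairings (y axis), from edgeR on all libraries. Vcam1 lies above 0 and Ncam1 below 0 in all 4 comparisons with CT, and the SE of Cdh1 and Cldn1 are larger than those of the other genes.

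Cdh1, the epithelial cadherin, lies on chromosome 19 (38768467 to 38838395, plus strand) in the coordinates of the files, whose genome build is not given in the sources used here. It was the least abundant of the genes with reads, with 3 to 57 counts per library. The Cdh1 level in CT rats ran from 0.415 CPM over a median of 0.551 to 3.34 CPM. In SR rats it ran from 0.626 over 0.882 to 2.13 CPM, and in SS rats from 0.157 over 0.721 to 1.40 CPM. The lowest SR rat was above 2 of the 6 SS rats, and the SR and SS groups overlapped over most of their range. The 5 YSR rats had 0.36, 0.419, 0.535, 0.693 and 1.35 CPM of Cdh1. The 5 YSS rats had 0.284, 0.341, 0.522, 1.02 and 1.05 CPM. The highest YSR rat and the 2 highest YSS rats stood above the rest of their groups, and both yoked groups overlapped SR and SS. The mean Cdh1 level was 1.04 ± 0.533 CPM in SR and 0.752 ± 0.448 CPM in SS rats (SD). The log2 fold change of Cdh1 in SR vs. SS was 0.47 (SE 0.48), with an adjusted p of 0.86 by edgeR. Single rats moved this value, to 0.21 without SR rat XIII-R07, 0.25 without SS rat XIII-R03 and 0.75 without SS rat XIII-L05. The exact two-sided permutation test on log2 CPM gave p = 0.244 (adjusted p = 0.837 over 48 tests), with 5 of 7 SR rats above the SS median. The log2 difference of Cdh1 in SR vs. SS was 0.98 within Grp XIII (3 against 4 rats, exact permutation p = 0.229) and -0.12 within Grp XII (4 against 2 rats, exact permutation p = 0.8). All 7 SR rats were above the YSR median, with a log2 fold change of 0.59 (SE 0.51) and an adjusted p of 0.826 by edgeR in SR vs. YSR. It was 0.33 without SR rat XIII-R07, 1.03 without YSR rat XIII-R10 and 0.37 with the first principal component of the other genes in the model. The CT mean of 1.01 ± 1.06 CPM rested on rat XIII-L12, with 57 counts. Without that rat the CT mean was 0.617 ± 0.282 CPM. All 7 SR rats were also above the median of all 7 CT rats. The log2 difference of Cdh1 in SR vs. CT was 0.30 (exact permutation p = 0.501, adjusted p = 0.982 over 48 tests).

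Cdh2, the neural cadherin, lies on chromosome 18 (8146971 to 8360684, minus strand) and joins neurons and their synapses. Its CPM ran from 141 to 181 over all rats, with means of 166 ± 7.82 in CT, 161 ± 11.1 in SR, 168 ± 7.65 in SS, 166 ± 7.16 in YSR and 166 ± 2.86 in YSS rats (SD). All groups overlapped in Cdh2. In SR vs. SS the log2 fold change of Cdh2 was -0.06 (SE 0.041, adjusted p = 0.772 by edgeR), and the log2 fold changes over the 8 pairings lay between -0.06 and 0.02. The SR rat with the lowest Cdh2, XII-R05 (141 CPM), carried a large part of the SR vs. SS difference.

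Cldn1, a claudin of epithelial tight junctions, lies on chromosome 11 (77815181 to 77830416, plus strand) and had 39 to 247 counts per library. The Cldn1 level in CT rats ran from 4.57 over a median of 7.14 to 10.3 CPM. In SR rats it ran from 2.29 over 9.76 to 13.6 CPM, and in SS rats from 3.86 over 6.82 to 14.3 CPM. Of the SR rats 3 of 7 were below the lowest CT rat and 3 of 7 above the highest, and of the SS rats 2 of 6 were below and 2 of 6 above. The 5 YSR rats had 3.30, 4.26, 4.34, 7.55 and 9.34 CPM of Cldn1. The 5 YSS rats had 4.12, 6.07, 6.82, 7.28 and 7.39 CPM. Neither yoked group reached the highest SR and SS rats, and all groups overlapped. Means were 7.32 ± 1.97 CPM in CT, 8.36 ± 4.96 in SR, 8.25 ± 4.78 in SS, 5.76 ± 2.57 in YSR and 6.34 ± 1.34 in YSS rats (SD). For Cldn1 the log2 fold change was 0.02 (SE 0.35, adjusted p = 0.996 by edgeR) in SR vs. SS and 0.54 (SE 0.38, adjusted p = 0.772 by edgeR) in SR vs. YSR. The value for Cldn1 in SR vs. YSR became -0.14 (SE 0.24) when the first principal component of the other genes was added to the model.

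Cldn5, the main claudin of brain endothelium, lies on chromosome 11 (86356294 to 86357718, minus strand) and was listed at 0 counts in 30 of 30 libraries. A floor of 3 counts would correspond to between 0.150 and 0.206 CPM, for counting error only. The single exon of Cldn5, 1425 bases long, lies entirely within an exon of another gene model on the opposite strand, from 86353975 to 86358453, which had 34 to 104 counts. Whether the counting used strand, and how reads shared by both models were handled, are not given in the sources used here. The listing is therefore no measurement of Cldn5, and no level, fold change or test is given for it.

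Vcam1, the endothelial ligand of integrin alpha 4 beta 1, lies on chromosome 2 (219071193 to 219097619, minus strand). The Vcam1 level in CT rats ran from 27.5 over a median of 30.7 to 36.2 CPM. In SR rats it ran from 31.7 over 35.3 to 40.3 CPM, and in SS rats from 31.2 over 34.7 to 39.7 CPM. All 7 SR and all 6 SS rats were above the CT median, though both groups overlapped CT. The 5 YSR rats had 31.2, 34.0, 34.7, 35.7 and 38.4 CPM of Vcam1. The 5 YSS rats had 29.5, 29.7, 33.7, 34.0 and 34.3 CPM. All 5 YSR rats and 3 of 5 YSS rats were above the CT median, and both groups overlapped CT. Against CT rats, the log2 fold change of Vcam1 by edgeR was 0.19 (SE 0.063, adjusted p = 0.359) for SR and 0.19 (SE 0.066, adjusted p = 0.933) for SS rats. It was 0.17 (SE 0.069, adjusted p = 0.618) for YSR and 0.05 (SE 0.069, adjusted p = 0.983) for YSS rats by edgeR. These values of Vcam1 share the CT rats. SR and SS rats had the same mean of 35.4 CPM (SD 2.80 and 3.26), and their log2 fold change was 0.00021 (SE 0.065, adjusted p over 0.99 by edgeR). Within the Grp codes the SR vs. SS difference of Vcam1 had opposite signs. It was 0.077 in Grp XIII (3 against 4 rats, exact permutation p = 0.543) and -0.148 in Grp XII (4 against 2 rats, exact permutation p = 0.0667, the smallest possible). The exact permutation test of Vcam1 against CT gave p = 0.0152 for SR, 0.0274 for SS and 0.0417 for YSR rats, and none of these held over the 48 tests (adjusted p = 0.329, 0.329 and 0.387).

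The Vcam1 level also followed the Grp code. It was 36.2 ± 2.08 CPM in the 11 Grp XII rats and 32.4 ± 2.95 CPM in the 19 Grp XIII rats (SD), a log2 difference of 0.16 with a permutation p of 0.00093 (adjusted p = 0.0112 over 12 comparisons of 6 genes by code and by letter). The code went with a larger share of the variance than in Vcam1 for 1.91% of all tested genes. Taken within groups, the log2 difference of Vcam1 was 0.13 (permutation p = 0.00644, adjusted p = 0.0773). With the Grp code in the edgeR model, Vcam1 gave a log2 fold change against CT of 0.14 for SR (adjusted p = 0.701), 0.16 for SS (adjusted p = 0.97) and 0.11 for YSR rats (adjusted p = 0.896), and the last no longer passed the unadjusted threshold. Within Grp XIII the log2 difference of Vcam1 from CT was 0.23 for SR (3 against 6 rats, exact permutation p = 0.0357), 0.15 for SS (exact permutation p = 0.0238) and 0.13 for YSR rats (exact permutation p = 0.179). The SR value depended on SR rat XIII-R09, the highest of all rats in Vcam1 (40.3 CPM), and was smaller without it. Within Grp XII, which held 1 CT rat, the log2 difference of Vcam1 from that rat was -0.038 for the 4 SR, 0.11 for the 2 SS and -0.0081 for the 3 YSR rats. A single CT rat shows nothing of the spread of CT, and no test is given for these differences.

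Icam1, the endothelial ligand of the leukocyte integrins, lies on chromosome 8 (22035256 to 22047059, plus strand) and had 57 to 118 counts per library. Its CPM ran from 3.27 to 6.78, with means of 4.41 ± 0.637 in CT, 4.58 ± 0.591 in SR, 4.53 ± 1.26 in SS, 4.84 ± 1.25 in YSR and 4.67 ± 1.09 in YSS rats (SD). All groups overlapped in Icam1. The log2 fold change of Icam1 was 0.01 (SE 0.16, adjusted p = 0.992 by edgeR) in SR vs. SS, and over the 8 pairings it lay between -0.08 and 0.13. Within the Grp codes the value for SR vs. SS had opposite signs. The log2 difference of Icam1 was 0.33 within Grp XIII (3 against 4 rats, exact permutation p = 0.0571) and -0.46 within Grp XII (4 against 2 rats, exact permutation p = 0.0667, the smallest possible). In SS vs. YSS it was -0.35 within Grp XIII (4 against 4 rats, exact permutation p = 0.114) and 0.65 within Grp XII (2 rats against 1). In an edgeR fit of the 11 Grp XII rats, chosen after seeing the data, the log2 fold change of Icam1 in SR vs. SS was -0.47 (SE 0.17, adjusted p = 0.541), which passed the unadjusted threshold, as did 8.23% of all genes.

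Ncam1, which joins neurons and glia, lies on chromosome 8 (53839098 to 53901358, minus strand). The Ncam1 level in CT rats ran from 306 over a median of 343 to 360 CPM. In SR rats it ran from 257 over 299.9 to 364 CPM, and in SS rats from 275 over 316 to 355 CPM. Of the SR rats 4 of 7, and of the SS rats 3 of 6, were below the lowest CT rat, while the SR group also held the highest rat of all. The 5 YSR rats had 283, 289, 289, 289.6 and 305 CPM of Ncam1. The 5 YSS rats had 298, 301, 317, 325 and 330.0 CPM. All YSR rats were below all CT rats, by a gap of about 1 CPM between the nearest rats, and the YSS rats overlapped CT. Ncam1 was the 1 gene of 6 whose YSR and CT groups did not overlap, against 0.88% of all genes tested. In edgeR the log2 fold change of Ncam1 was -0.21 (SE 0.064, adjusted p = 0.411) in YSR vs. CT and -0.15 (SE 0.058, adjusted p = 0.393) in SR vs. CT. For SS and YSS rats against CT it was -0.09 (SE 0.060, adjusted p = 0.997) and -0.10 (SE 0.063, adjusted p = 0.980) by edgeR, and these comparisons share the CT rats. In SR vs. SS it was -0.06 (SE 0.060, adjusted p = 0.865). Single rats moved this difference, which was larger in size without SR rat XIII-L09 (364 CPM) and smaller without SR rat XII-R05 (257 CPM). In YSR vs. YSS the log2 fold change of Ncam1 was -0.11 (SE 0.069, adjusted p over 0.99 by edgeR), with 4 of 5 YSR rats below the lowest YSS rat and an exact permutation p of 0.0238 (adjusted p = 0.329 over 48 tests). The exact permutation test of Ncam1 in YSR vs. CT gave p = 0.00253, where 0.00126 is the smallest p these group sizes allow, and an adjusted p of 0.121 over 48 tests.

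Ncam1 was 294 ± 20.2 CPM in Grp XII and 325 ± 25.5 CPM in Grp XIII (SD), a log2 difference of -0.14 (permutation p = 0.00228, adjusted p = 0.0137), and for 3.59% of all tested genes the code went with a larger share of the variance. Within groups the log2 difference of Ncam1 was -0.10 (permutation p = 0.0281, adjusted p = 0.149). With the code in the edgeR model, the log2 fold change of Ncam1 was -0.16 (adjusted p = 0.780) in YSR vs. CT and -0.11 (adjusted p = 0.750) in SR vs. CT, and the latter no longer passed the unadjusted threshold. Within Grp XIII the difference of Ncam1 in mean log2 CPM was -0.25 in YSR vs. CT (2 against 6 rats, exact permutation p = 0.0357, the smallest possible). In SR vs. CT this difference was -0.06 (3 against 6 rats, exact permutation p = 0.440). The SR value depended on SR rat XIII-L09, the highest of all rats in Ncam1 (364 CPM), and was larger in size without it. Within Grp XII the log2 difference of Ncam1 from the 1 CT rat was -0.095 for YSR and -0.14 for SR rats. The part of the Grp code in the differences of Vcam1 and Ncam1 from CT was not tested beyond these values. For the other 4 genes the difference by Grp code did not pass the threshold (adjusted permutation p of at least 0.612), nor did that by letter for any of the 6 (adjusted permutation p of at least 0.172).

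The axis along which the libraries differed most was described by the first principal component of log2 CPM of the 15791 tested genes other than the adhesion molecules. It carried 14.7% of their variance, and the second carried 7.79%. Whether the axis reflects how the tissue was dissected was not tested, since the gene identifiers could not be paired with tissue markers. No difference in the score passed the threshold in the 8 pairings (smallest exact permutation p = 0.138, in SR vs. YSR, adjusted p = 0.794). Group membership accounted for 12% of its variance, a share not corrected for what a split into groups takes up by chance. The relation of the score to the total count (r = -0.227, permutation p = 0.225, rho = -0.253, p = 0.176) and to the percentage of counts on mitochondrial genes (r = 0.228, permutation p = 0.225, rho = 0.196, p = 0.298) did not pass the threshold either (adjusted p = 0.225 for r and 0.298 for rho, over both relations). Without the 2 rats farthest from the median score, r was -0.206 and 0.369. It was -0.0612 and 0.488 in Grp XII, and -0.356 and 0.128 in Grp XIII.

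Cldn1 followed this component closely, and for the other 5 genes the relation did not pass the threshold over all 30 rats. Over 30 rats, r between the component and log2 CPM of Cldn1 was 0.837 and rho 0.839, each with a permutation p of 1e-05, the smallest that 100000 permutations can give (adjusted p = 6e-05 over 6 genes). A larger r in size was found for 0.677% of all tested genes. The relation held within Grp XII (r = 0.892, p = 0.00056) and Grp XIII (r = 0.813, p = 6e-05), for deviations from the group means (r = 0.841) and without the 2 rats farthest from the median (r = 0.805). The component accounted for 70.1% of the variance of Cldn1 between rats and the 5 groups for 4.72%. The share of the 5 groups was not corrected for what such a split takes up by chance. The SD of log2 CPM of Cldn1 fell from 0.69 to 0.38 once the component was taken out. The 3 SR rats with the lowest Cldn1 had scores of -18.3, -10.3 and -4.54, and the other 4 SR rats had scores of 12, 16.1, 18.3 and 23.8. High and low Cldn1 within the SR group thus lay on opposite sides of the component.

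**Figure D3:**
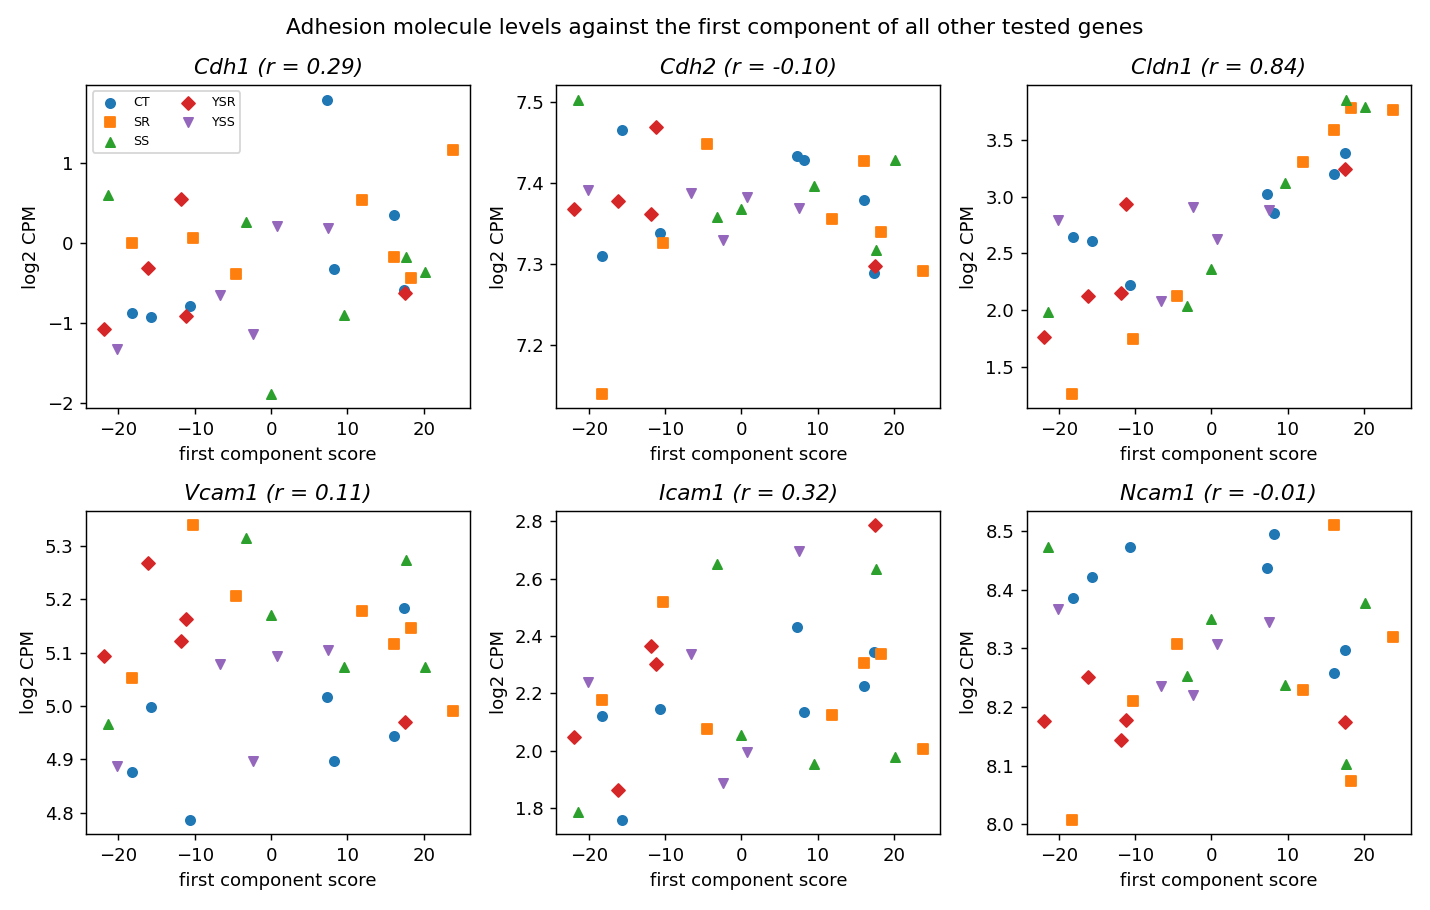
Log2 CPM of 6 adhesion molecules (y axis) against the score of each rat on the first principal component of the other tested genes (x axis, in log2 units), with groups by symbol. Cldn1 rises along the component over the rats of the 5 groups together (r = 0.837), and the other genes show r between -0.0978 and 0.317.

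The remaining genes had weaker relations (adjusted p of at least 0.252 for r and 0.342 for rho, over 6 genes). For Icam1, r was 0.317 (permutation p = 0.0884, adjusted p = 0.252) and rho 0.261 (permutation p = 0.162). Without the 2 rats farthest from the median, r of Icam1 was 0.457 (permutation p = 0.0146, adjusted p = 0.0438), and it was 0.498 in Grp XII and 0.233 in Grp XIII. For Cdh1, r was 0.285 (permutation p = 0.126) and rho 0.256 (permutation p = 0.171), with 0.302 in Grp XII, 0.295 in Grp XIII and 0.211 without the 2 farthest rats. Vcam1 (r = 0.112, permutation p = 0.554, rho = 0.142, p = 0.452), Cdh2 (r = -0.0978, permutation p = 0.617, rho = -0.196, p = 0.297) and Ncam1 (r = -0.00578, permutation p = 0.975, rho = -0.0327, p = 0.863) had the smallest r. Without the 2 farthest rats, r was 0.166 for Vcam1, -0.0848 for Cdh2 and -0.0631 for Ncam1. Within Grp XII and Grp XIII, r was 0.271 and 0.136 for Vcam1, -0.0414 and -0.173 for Cdh2, and 0.0548 and -0.0806 for Ncam1. For Vcam1 and Ncam1 the component accounted for 1.25% and 0.00334% of the variance, the 5 groups for 35.3% and 32.3%, and the Grp code for 33.8% and 28.9%. A split into 5 groups takes up more variance by chance than the code or a single score, so these shares are not on one scale. The code was unevenly spread over the groups, so the shares of groups and code are not separate. Adding the component to the edgeR model left the log2 fold change of Vcam1 in SR vs. CT at 0.19 (adjusted p = 0.336) and that of Ncam1 in YSR vs. CT at -0.22 (adjusted p = 0.447).

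Of the 15 pairs among the 6 genes, 1 was related at an adjusted p under 0.05. Cdh2 and Ncam1 rose and fell together over 30 rats, with r = 0.576 (permutation p = 0.00066, adjusted p = 0.0099) and rho = 0.492 (permutation p = 0.0061, adjusted p = 0.0915). Among all pairs of tested genes, 1.11% had a larger r in size. The relation between Cdh2 and Ncam1 had r = 0.591 in Grp XII (permutation p = 0.0518), 0.566 in Grp XIII (permutation p = 0.0117) and 0.647 for deviations from the group means (permutation p = 0.00013). Without the 2 rats farthest from the median of Cdh2, r was 0.376 (unadjusted permutation p = 0.049), so part of the relation rested on those rats. Adjusted over the 15 pairs, the relation of Cdh2 to Ncam1 did not pass the threshold without them. The relation between Vcam1 and Ncam1 did not pass the threshold (r = -0.438, permutation p = 0.0152, adjusted p = 0.114, rho = -0.421, p = 0.0211, with a larger r in size in 5.59% of all pairs of tested genes), and r was 0.335 within Grp XII (permutation p = 0.312). The r of Vcam1 to Ncam1 was -0.349 in Grp XIII (permutation p = 0.142), -0.256 for deviations from group means (permutation p = 0.173) and -0.361 without the 2 rats farthest from the median of Vcam1 (permutation p = 0.059).

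The genes most alike to each adhesion molecule were sought among the other 15796 tested genes by Pearson r of log2 CPM over 30 rats. The closest to Cldn1 were ENSRNOG00000004089 (r = 0.883) and ENSRNOG00000003472 (r = 0.879), given by identifier because the files do not pair identifiers with symbols. The highest r to another gene was 0.865 for Ncam1, 0.840 for Cdh2, 0.804 for Cdh1, 0.784 for Icam1 and 0.745 for Vcam1. None of these closest genes was another of the adhesion molecules.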

How the data were processed

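The deposited values were raw read counts per Ensembl gene, 1 file per rat, with no normalization by the authors. The submitters' processing notes name bcl2fastq 2.17, Trimmomatic 0.36, STAR 2.5.2b and featureCounts of Subread 1.5.2, and the kit selected poly(A) RNA. Genome build, annotation release and strand setting are not given in the sources used here. The members and lists were chosen with earlier results of these data known. Named genes were the 7 members and, for each, the 2 tested genes with the highest r, printed by identifier for at most 2. Lists of 90 other adhesion genes and 44 cell type markers could not be used, since the RefSeq table gives symbols without Ensembl identifiers (0 and 1 matched), so the tissue was not checked against markers.

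edgeR 4.0.16 (R 4.3.3) tested 15797 genes kept by its default filter, with TMM normalization, group as the factor and Benjamini-Hochberg adjustment over all of them. The SE given with its fold changes was derived as the size of the log2 fold change divided by the square root of the F statistic. DESeq2 1.42.0 and Tukey's test on log2 CPM were alternatives. Log2 CPM used a prior count of 2. Exact two-sided permutation tests compared single values, and correlations used 100000 permutations. The comparison of the members by Grp code and letter was added after the group tests had been seen. No 2 libraries of a group agreed within counting error, as repeat deposits of 1 library would, so each counted once. The code was tested on simulated data.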

Additional observations from a re-analysis of the deposited data

Results flagged for a closer look

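Over 35 sets of values (6 genes and the component score, each in 5 groups), 2 rats stood far from the rest of their group, where chance gives about 1 in 20 sets, or 1.75. CT rat XIII-L12 had 3.34 CPM of Cdh1, and the other CT rats had 0.415 to 1.16 CPM. The rate of 1 in 20 holds for normally spread values, which the CPM of a gene with few counts need not be. In log2 CPM the same rat had 1.79, and the other CT rats had -0.92 to 0.35. YSR rat XIII-R08 had a score of 17.6 on the first component, and the other YSR rats had scores between -21.9 and -11.2.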

How the results depend on the processing

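At an adjusted p under 0.05, none of the adhesion molecules tested was called in any comparison under any alternative fit, the 30 fits without 1 library included, where these fits called at most 0.361% of all genes. Cdh1 was not tested where 10 counts in every library were required. The smallest adjusted p was 0.0843 (Ncam1 in YSR vs. CT, only those 2 groups fitted), where the fit of all libraries gave 0.411. Of 17 fold changes given above, 8 kept their sign in every fit. In SR vs. SS the log2 fold change of Cldn1 was -0.087 with the component as covariate, -0.063 as a difference in mean log2 CPM and between -0.14 and 0.25 without 1 library. That of Vcam1 was -0.026 with the Grp code as covariate and between -0.034 and 0.035 without 1 library, and that of Icam1 lay between -0.060 and 0.12 without 1 library. In SR vs. YSR that of Cldn1 was -0.14 with the component as covariate. Fits of Grp XII alone were chosen after seeing the data. In SR vs. SS they gave, with all 5 groups and with the 2 groups only, -0.0936 and -0.0934 for Cdh1, -0.2904 and -0.2901 for Cldn1, -0.1421 and -0.1422 for Vcam1, and -0.4654 and -0.4653 for Icam1. Grp XII held 1 CT and 1 YSS rat, each assumed to vary like the other groups. Values against them therefore show neither a loss nor a gain of a call. Against that CT rat, Vcam1 had -0.0334 in SR rats, -0.0085 in YSR rats and -0.0918 in the 1 YSS rat, and Ncam1 had 0.0086 in the 1 YSS rat. The cause was not tested.

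At an unadjusted p under 0.05, the count in SR vs. CT was 1 with the Grp code (6.83% of all genes tested in the same fit), in Grp XIII alone (7.19%) and by Tukey's test (1.91%). In SS vs. CT it was 0 by Tukey's test (0.804%). In YSR vs. CT it was 1 with the Grp code (5.61%) and by Tukey's test (1.3%). The p-values of Tukey's test in the pairings are adjusted over the pairs of groups, so its threshold is stricter there. For any difference the count was 0 with the Grp code (6.75%). Grp XIII alone gave 1 for any difference (6.6%), 1 between SS and YSS rats (6.41%) and 1 between SR and YSR rats (4.54%). Fits of 2 groups gave 1 in YSS vs. CT (6.93%) and 1 in YSR vs. YSS (4.17%), both Ncam1. Among Grp XII rats, SR vs. SS with the 2 groups only gave 1 (7%), which was Icam1. No count is given for comparisons that include the 1 CT or the 1 YSS rat of Grp XII. Without 1 library, the counts were 1 to 2 in SS vs. CT (3.89% to 7.18% of all genes), 1 to 2 in YSR vs. CT (6.03% to 8.85%), 0 to 1 in SS vs. YSS (3.31% to 5.08%) and 0 to 2 for any difference (6.29% to 8.38%). Fewer rats in Grp XII, in Grp XIII and in pairs of groups change these fits by construction.

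The relation of Cldn1 to the component kept its side of the threshold in all alternatives (r from 0.804 to 0.892). For Icam1, r was 0.457 without the 2 farthest rats, past the threshold. For Ncam1, r was 0.0548 within Grp XII and 0.0807 on log2 CPM of total counts, and for Cdh2 it was 0.0260 on that scale. Within Grp XII and within Grp XIII, 0 of 15 pairs passed: Cdh2 and Ncam1 had r = 0.591 and 0.566, and Vcam1 and Ncam1 had r = 0.335 in Grp XII. Cdh2 and Ncam1 also did not pass, once adjusted, without the 2 rats farthest from the median of Cdh2 (r = 0.376). No paired analysis was run, because the labels do not state the partner of each yoked rat. Neighboring numbers in the titles, such as SR rat XIII-R07 and YSR rat XIII-R08, may mark partners. Wherever the number before that of a yoked rat was sequenced under the same code and letter, it belonged to a METH rat of the matching group. Some yoked rats, such as YSR rat XII-R02, have no such neighbor among the sequenced rats. No source used here says that the numbers mark partners, and the METH and yoked groups were compared as independent groups. At 3 to 57 counts, Cdh1 carries the widest error of the genes tested.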
